A study of Homo sapiens with 32 samples.

Results

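Chromatin accessibility was followed at 10 genes of the CCR4-NOT complex: CNOT1, CNOT2, CNOT3, CNOT4, CNOT6, CNOT6L, CNOT7, CNOT8, CNOT9 and CNOT10. Every window of the deposited count table whose centre lay within 1000 bp of a GENCODE transcript start of 1 of these genes was taken, which gave 32 of 212358 windows, each 401 bp wide. CNOT1 was chosen by its measured log2 fold change: a window beside its start lost accessibility strongly between the same libraries, so the values of that window are given as a description, with no test. The other genes of the complex were taken as comparators.

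The libraries were made by ATAC-seq, in which the transposase Tn5 inserts adapters into open chromatin, from 1 HEK293T clone. HEK293T derives from human embryonic kidney and carries the SV40 large T antigen. In this clone ZNF143, a zinc finger factor that binds promoters, carries an inducible degron tag, and dTAGV-1 is a degrader molecule that directs proteins with such a tag to the proteasome. Counts were compared between 8 control libraries, which received DMSO, and 8 libraries collected after 30 min with 50 nM dTAGV-1 (replicates 9 to 16 of each group). The labels of these 16 libraries name the clone but not the tag, which the labels of replicates 1 to 8 of the same clone give. Both groups thus share the clone and its tagged ZNF143. The level of ZNF143 protein was not analysed here, and nothing in the labels says whether the libraries came from separate cultures, so p-values measure only the spread between these libraries.

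CCR4-NOT is the main deadenylase complex of eukaryotic cells. It shortens the poly(A) tails of mRNAs in the cytoplasm and so prepares them for decapping and decay, and adaptor proteins bring it to particular mRNAs. CNOT1 is the large scaffold on which the other subunits assemble.

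CNOT1 had 2 windows that met the distance rule. CNOT1 lies on the minus strand of chromosome 16, with its outermost transcript start at 58629885 (hg38). The start window, chr16:58629834-58630234, had its centre 149 bp upstream of that start. The upstream window, chr16:58630311-58630711, had its centre 626 bp upstream, in sequence annotated as intergenic. The windows did not overlap, with 76 bases between them.

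The upstream window is shown by the stretch that holds both of its matches to a ZNF143 composite motif, and the CNOT4 start window by its closest match, because these were the 2 windows of the complex nearest to that motif. The composite was written as ACTACANNNCCCANNATGC, 14 fixed letters of 19, in which N is any base, and it was searched on both strands. Its first 6 letters, ACTACA, were also searched alone. It was written down after the CNOT1 sequence had been read, and the search with differing letters after the CNOT4 sequence had been read. Both stretches come from the hg38 reference, minus strand, 5′ to 3′, with the composites or the closest match in capitals.
CNOT1, chr16:58630452-58630602: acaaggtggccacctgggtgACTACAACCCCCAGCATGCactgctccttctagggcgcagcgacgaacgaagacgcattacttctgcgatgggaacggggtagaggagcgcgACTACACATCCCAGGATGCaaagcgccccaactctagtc
CNOT4, chr7:135510187-135510285: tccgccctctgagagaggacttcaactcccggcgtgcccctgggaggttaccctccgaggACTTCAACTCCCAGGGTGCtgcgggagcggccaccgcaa

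The CNOT1 upstream window held 2 full composites on the same strand, ACTACAACCCCCAGCATGC at chr16:58630564-58630582 and ACTACACATCCCAGGATGC at chr16:58630472-58630490. They began 92 bp apart and differed from each other at 4 of 19 letters. Of all 212358 windows, 127 (0.0598%) held a composite, and 10 (0.00471%) held at least 2. Among the 51448 windows within 1000 bp of any transcript start, 112 (0.218%) held one. The summit that the authors' list of replicates 1 to 8 places in this window, at 58630520, fell between the composites, 9 bp from the window centre. A match is a description of letters and shows no binding.

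The CNOT4 match, at chr7:135510207-135510225, differed from the composite at 2 of its 14 fixed letters and lay upstream of every annotated CNOT4 start. The summit of replicates 1 to 8 in that window, at 135510228, was 3 bp from the match. The printed CNOT4 stretch also holds a weaker match on the same strand, left in small letters. Of all windows, 1809 (0.852%) held a match with at most 2 differing letters, and of those near a start 1.91% did. In the other 30 windows of the complex the closest match differed at 4 to 6 letters, and 25.1% of all windows had a match with 4 or fewer. The CNOT1 start window, 477 bp from the upstream one between centres, held none of these ZNF143 letters but 6 copies of CCAAT, the box bound by NF-Y. At least 1 copy of CCAAT was present in 38.8% of windows, and at least 2 in 23292 of them. In all, 9 letter patterns were searched. The CNOT1 start window also held 1 match to GCGCANGCGC, written for NRF1, and 1 to GGGCGG, written for SP factors. The CNOT4 start window held 1 and 4 of these. Of all windows, 1.11% held the NRF1 letters and 21.3% the SP letters.

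Libraries of replicate 12, and to a smaller extent of replicate 11, stood apart. Total counts ran from 2275856 to 11418578 in the control group and from 3373219 to 13671039 in the dTAGV-1 group, and replicate 12 was the lowest in each. The share of counts in the tenth of windows with the most signal was 31.8% in control replicate 12 and 38.9% in dTAGV-1 replicate 12, 45.8% and 41.8% in replicate 11, and 48.1% to 49.6% in the other 12 libraries. Results that rest on these libraries are given with and without them. Promoter windows of the HEK293T markers PAX2, NEFL, NEFM and VIM were accessible, with highest control levels of 3.01 to 3.92 log2 CPM, while the 3 windows of LHX1 held 0 to 5 counts over all 16 libraries and were not tested. In all, 2816 windows held 0 counts in every library, 679 of them with an authors' −log10 q of at least 100, so a count of 0 here is not read as closed chromatin. PTPRC and CD3E of leukocytes and ALB of hepatocytes had 0 windows, and CDH5 of endothelium had 2, at up to 0.86 log2 CPM.

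In the CNOT1 upstream window, chromatin was 2.72-fold less accessible in the dTAGV-1 libraries than in the controls, while the window at the start of the same gene had a fold change that did not pass the test. Accessibility of the upstream window in the control libraries of replicates 9 to 16 was 5.00, 5.06, 5.06, 3.74, 4.98, 5.05, 4.91 and 5.13 log2 CPM (counts scaled to library size). In the dTAGV-1 libraries it was 3.20, 3.84, 3.31, 3.59, 3.55, 3.68, 3.34 and 3.42. Control replicate 12 alone reached down into the range of the dTAGV-1 libraries, and 7 of 8 dTAGV-1 libraries lay below it. Without that library the controls ran from 4.91 to 5.13 and all 8 dTAGV-1 libraries were below them. The share of all windows that separate without it was not counted. The group means were 4.86 ± 0.46 (SD, n = 8) and 3.49 ± 0.21 (SD, n = 8).

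The fitted log2 fold change of the CNOT1 upstream window was -1.44 (SE 0.15, 95% interval -1.74 to -1.15). This left 36.8% of the control level (interval 30.0% to 45.2%), a 2.72-fold lower value. Over 23 other settings, including each library left out in turn, the fold change ran from -1.53 to -1.39. The window had been selected for this value, so its size carries that choice. The intervals take no account of the selection and are not read as a test. It rested on 2061 counts in the control libraries and 766 in the dTAGV-1 libraries.

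The CNOT1 start window was brighter and differed less between the groups. Its control libraries ran from 4.93 to 6.16 log2 CPM with a median of 6.10, and its dTAGV-1 libraries from 5.52 to 6.14 with a median of 5.95. With all libraries the ranges overlapped, with means of 5.92 ± 0.41 (SD, n = 8) and 5.90 ± 0.22 (SD, n = 8). Without control replicate 12 the controls ran from 5.85 to 6.16, with a mean of 6.07 ± 0.10 (SD, n = 7), and 3 of 8 dTAGV-1 libraries lay below all of them. The fold change was -0.06 (SE 0.15, 95% interval -0.36 to 0.25, edgeR quasi-likelihood test, adjusted p = 1.00). Over the other settings it ran from -0.15, without control replicate 12, to -0.01, and passed in 0 of 23.

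The ratio of the upstream to the start count within each library does not depend on library scaling. In the controls the upstream window of CNOT1 held 43.2% to 57.4% of the start window's count, with a median of 47.6%. In the dTAGV-1 libraries it held 14.2% to 23.5%, with a median of 18.7%. The groups did not overlap, and replicates 11 and 12 lay with their own groups. The means were 47.9 ± 4.36% (SD, n = 8) and 18.7 ± 3.06% (SD, n = 8), a description of the window chosen for its loss.

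**Figure D1:**
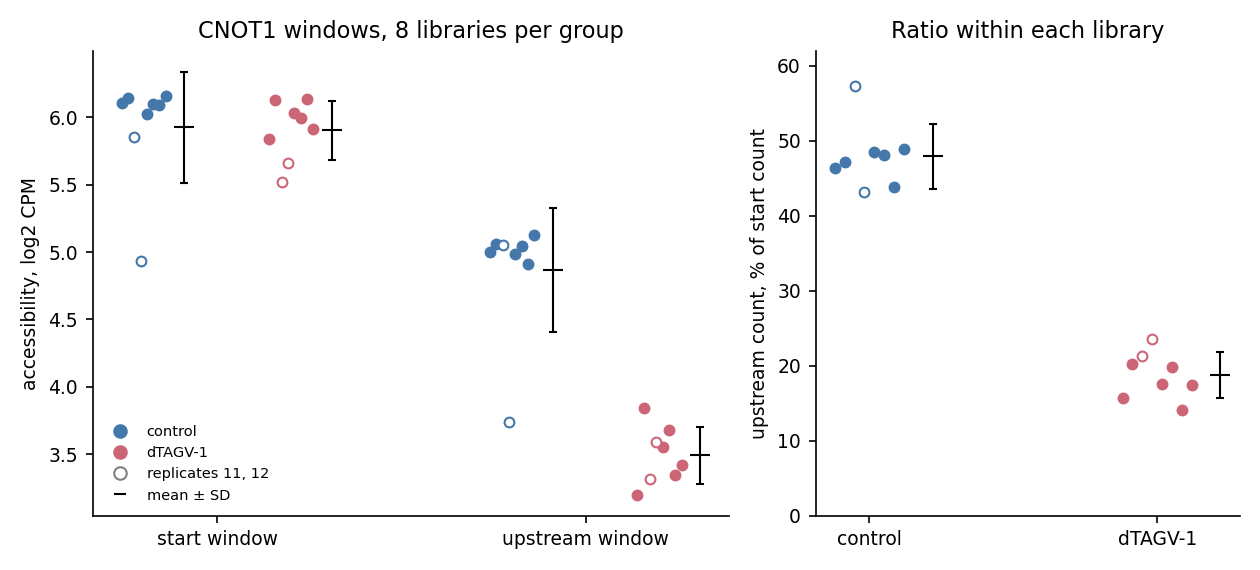
Accessibility of the CNOT1 start and upstream windows in log2 CPM (left) and the upstream count as a percentage of the start count in the same library (right), with 1 point for each library, replicates 11 and 12 hollow, and bars for the mean ± SD. The start window overlaps between groups, whereas the ratio runs from 43.2% to 57.4% in controls and from 14.2% to 23.5% with dTAGV-1.

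Of all 32 windows of the complex, 32 passed the filter on low counts. The CNOT1 upstream window was selected on this contrast, so that its place past the threshold of edgeR (adjusted p at or under 0.05) follows from the choice and is not read as a test, and the CNOT1 start window did not pass. Over all genes and regions, 185040 windows were tested, of which 395 were lower, or 0.213%, and 2 were higher, or 0.00108%. Of the 48342 tested windows near any transcript start, 0.492% were lower. In 0.0713% of tested windows all 8 dTAGV-1 libraries lay below all 8 controls, which held for 0 of the 32 windows of the complex when control replicate 12 was included. At an unadjusted edgeR p under 0.05, 2876 of the 185040 windows were lower and 2405 higher. Of the 30 windows of the other 9 genes, 0 passed in either direction, and 1, at CNOT4, was lower at an unadjusted p under 0.05. These 30 had fold changes from -0.42 to 0.22 with a median of -0.02, beside 0.01 over all tested windows, and standard errors of 0.13 to 0.27.

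**Figure D2:**
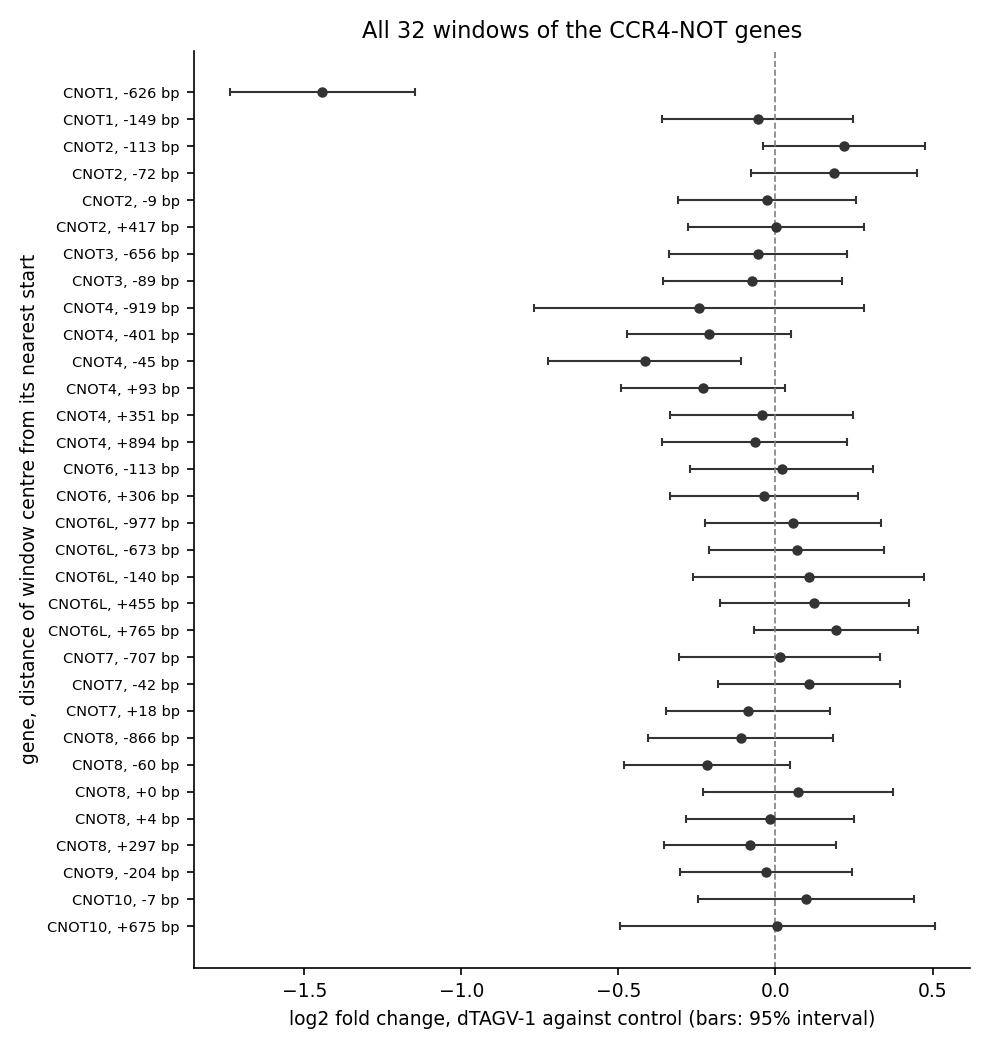
Log2 fold change of dTAGV-1 against control for all 32 windows of the 10 genes, each labelled by the signed distance of its centre from the nearest start of its gene (minus is upstream). Points are edgeR estimates and bars 95% intervals. The CNOT1 upstream window, selected on this contrast so that its interval is not read as a test, stands at -1.44. The next lowest, the CNOT4 start window, stands at -0.42.

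CNOT4, an E3 ubiquitin ligase linked to the complex, had the next lowest fold change, and whether its start window was called depended on the libraries kept and on the model. Its start window, chr7:135509990-135510390, had its centre 45 bp upstream of a start. The controls of replicates 9 to 16 stood at 6.49, 6.41, 6.18, 5.33, 6.40, 6.35, 6.41 and 6.38 log2 CPM. The dTAGV-1 libraries stood at 5.93, 5.99, 5.58, 5.28, 5.99, 6.01, 6.09 and 5.93. All 8 dTAGV-1 libraries lay below the control median of 6.39, but control replicate 12 was so low that 1 of 8 lay below every control. Without control replicate 12, 8 of 8 did. The share of all windows that separate in this way without that library was not counted.

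The means of the CNOT4 start window were 6.25 ± 0.38 (SD, n = 8) in controls and 5.85 ± 0.27 (SD, n = 8) with dTAGV-1. The fold change was -0.42 (SE 0.16, 95% interval -0.72 to -0.11), which left 74.9% of the control level. It did not pass over all tested windows (edgeR unadjusted p = 0.0106, adjusted p = 1.00). With all 16 libraries kept, limma after cyclic loess scaling gave -0.41 and a call (limma adjusted p = 2.54e-05). With replicate number as a block, the fold change was -0.41 (SE 0.08) and passed (edgeR adjusted p = 0.000259). In 8 of 8 same-numbered pairs the dTAGV-1 library was lower, though the labels do not say that the numbers mark pairs. The share of all windows with this pattern was not counted. Without control replicate 12 the fold change was -0.51 (SE 0.11) and passed (edgeR adjusted p = 0.00787). Without replicates 11 and 12 of both groups it was -0.43 (SE 0.06, edgeR adjusted p = 2.79e-07), with controls at 6.35 to 6.49 and dTAGV-1 libraries at 5.93 to 6.09. The window was called in 4 of 23 other settings, in which the adjusted p ran from 2.79e-07 to 1.00 and the fold change from -0.51 to -0.35. The part of depth and of the flat signal of replicate 12 in this result was not tested beyond leaving the libraries out.

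The other 5 windows of CNOT4 had negative fold changes as well, none of which passed. The windows on either side of the start window, which overlap it slightly and so share some counts with it, changed by -0.23 (SE 0.13) on the gene side and -0.21 (SE 0.13) on the far side. Their unadjusted p-values in edgeR were 0.0907 and 0.119. The 3 more distant ones, at 1 intron and at the exons near an internal start, had values of -0.04 (SE 0.15), -0.07 (SE 0.15) and -0.24 (SE 0.27).

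Across the whole table, loss was called more often in windows with a closer match to the composite. Of the 126 tested windows with a full composite, 38 were lower (30.2%), and of the 1072 whose closest match differed at 2 letters, as at CNOT4, 165 were (15.4%). At 3 differing letters the share was 1.11%, and at 4 letters 19 of 38012 windows were lower, the class of 1 window each of CNOT2, CNOT4 and CNOT6. The CNOT1 window belongs to the first class, which without it had 37 of 125 lower (29.6%) and a median fold change of -0.37. Of the 9 other windows with at least 2 composites, 6 were lower and all 9 had a negative fold change, with a median of -0.89.

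**Figure D3:**
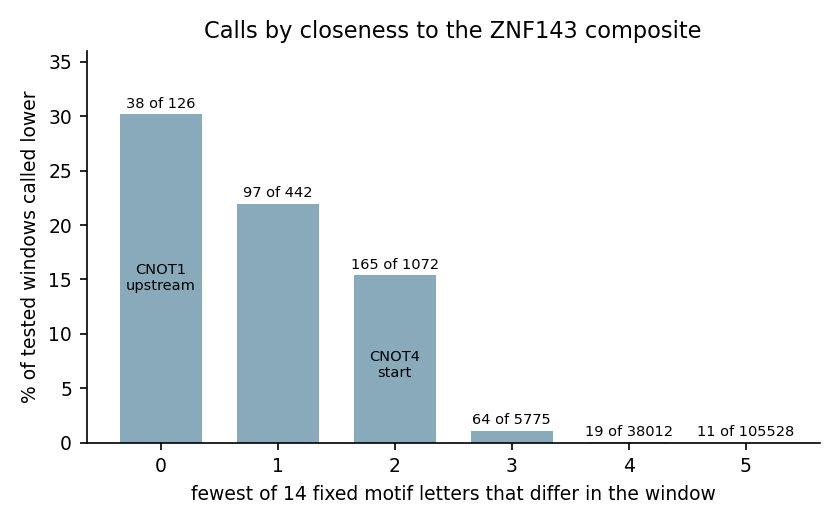
Percentage of tested windows called lower with dTAGV-1 (edgeR, adjusted p at or under 0.05) by the fewest fixed motif letters at which any stretch of the window differs from the composite; counts stand above the bars, and windows with more than 5 differing letters are left out. The class of the CNOT1 upstream window (0 letters) had 30.2% lower and that of the CNOT4 start window (2 letters) 15.4%.

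The remaining subunits are given by role. CNOT2 and CNOT3 form the NOT module at the C-terminal end of the scaffold. The CNOT2 start window, chr12:70243539-70243939, lay in the untranslated region of CNOT2 and shares its promoter with the noncoding gene PRANCR. It ran from 2.88 to 3.57 in controls (median 3.38) and from 2.59 to 3.73 with dTAGV-1 (median 3.34), with a fold change of -0.03 (SE 0.14) whose sign turned without some libraries. The highest fold change of the whole set, 0.22 (SE 0.13, edgeR unadjusted p = 0.106), belonged to another CNOT2 window, 113 bp upstream of a start in an exon of PRANCR. In that window 1 of 8 dTAGV-1 libraries lay below the control median, yet the groups overlapped.

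The CNOT3 start window, chr19:54137460-54137860, ran from 2.55 to 3.68 in controls (median 3.27) and from 2.88 to 3.86 with dTAGV-1 (median 3.15). Its fold change was -0.07 (SE 0.15, 95% interval -0.36 to 0.21). The other CNOT3 window, centred 656 bp upstream, gave -0.06 (SE 0.15).

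CNOT9, which binds adaptor proteins, and CNOT10, part of a module at the N-terminal end of the scaffold, showed overlapping groups. The CNOT9 window, chr2:218568176-218568576, also lies within 1000 bp of a start of USP37. It ran from 3.89 to 5.02 in controls (median 4.70) and from 4.40 to 4.92 with dTAGV-1 (median 4.64), with a fold change of -0.03 (SE 0.14). It was the only window other than the CNOT1 upstream one that held ACTACA, which 16.1% of all windows hold.

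The CNOT10 start window, chr3:32685013-32685413, ran from 4.74 to 6.31 in controls (median 6.21) and from 5.36 to 6.50 with dTAGV-1 (median 6.27). Its fold change was 0.10 (SE 0.18, 95% interval -0.25 to 0.44). Its closest match to the composite differed at 6 letters. Whether closeness to the composite bears on the fold changes of these genes was not tested. A second CNOT10 window, in an intron, was near the lower end of the table at 0.91 log2 CPM in both groups.

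The catalytic subunits come in pairs of related enzymes. CNOT6 and CNOT6L are nucleases of the exonuclease-endonuclease-phosphatase fold. The CNOT6 start window, chr5:180494066-180494466, ran from 3.85 to 5.24 in controls (median 5.07) and from 4.58 to 5.20 with dTAGV-1 (median 5.08), with a fold change of 0.02 (SE 0.15). The CNOT6L start window, chr4:77819555-77819955, also lies within 1000 bp of a start of another annotated gene. It had the lowest level of the 10, from 1.31 to 2.91 in controls (median 2.72) and from 1.44 to 3.32 with dTAGV-1 (median 2.66). Its fold change was 0.11 (SE 0.19), and all 5 CNOT6L windows had positive values, from 0.06 to 0.19, of which 0 passed in edgeR and 0 had an unadjusted p under 0.05.

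CNOT7 and CNOT8 are the other pair, nucleases of the DEDD family. The CNOT7 start window, chr8:17246354-17246754, whose neighbouring start belongs to VPS37A, ran from 2.95 to 3.83 in controls (median 3.60) and from 3.08 to 3.63 with dTAGV-1 (median 3.52). Its fold change was -0.09 (SE 0.13). The CNOT8 start window, chr5:154858339-154858739, also lies within 1000 bp of a start of FAXDC2. It ran from 3.47 to 5.12 in controls (median 4.93) and from 4.51 to 5.24 with dTAGV-1 (median 4.91), with a fold change of 0.07 (SE 0.15). The window beside it at 154857959, in an intron of both CNOT8 and FAXDC2, had all 8 dTAGV-1 libraries below the control median of 4.07. Its fold change was -0.22 (SE 0.13, edgeR unadjusted p = 0.111). No enzyme of either pair had a window that passed, and the 95% intervals of their start windows reached at most 0.47 on the log2 scale in either direction.

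**Figure D4:**
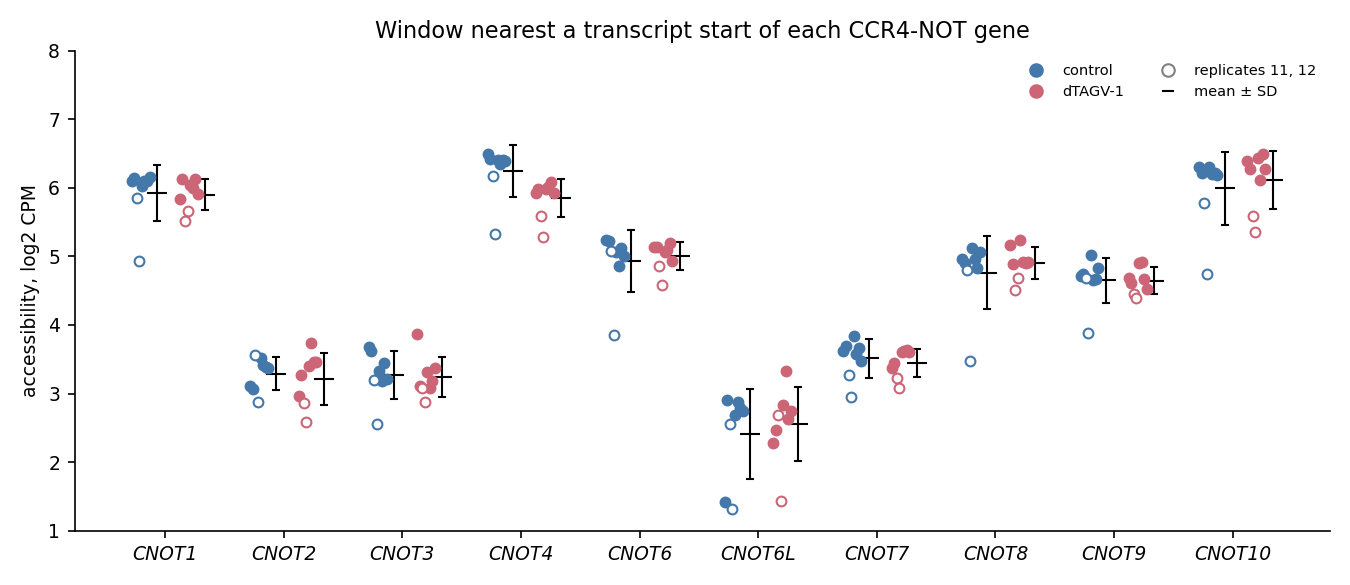
Accessibility in log2 CPM of the window nearest a transcript start of each of the 10 genes, with 1 point for each of 8 libraries per group, replicates 11 and 12 hollow, and bars for the mean ± SD. Only at CNOT4 do all filled control points lie above all filled dTAGV-1 points. The share of all windows with this pattern was not counted.

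All windows have the same width, and their levels are set side by side here without correction for base composition. G and C made up 63.1% of the CNOT1 start window and 81.5% of that of CNOT6L. The part of this in the levels was not tested. In controls the start windows fell into 4 steps. CNOT4 (6.25), CNOT10 (5.99) and CNOT1 (5.92 log2 CPM) came first and did not differ beyond the SD of their libraries. CNOT6 (4.93), CNOT8 (4.76) and CNOT9 (4.65) followed, then CNOT7 (3.51), CNOT2 (3.29) and CNOT3 (3.28), and CNOT6L (2.41) was last. With all 8 controls the gaps between these steps, 0.99, 1.14 and 0.87, exceeded the larger SD of the neighbouring genes, whereas those within each step did not. Without replicates 11 and 12, some gaps within steps exceeded the SD as well. CNOT4 then stood at 6.41 ± 0.05, CNOT10 at 6.24 ± 0.05 and CNOT1 at 6.10 ± 0.05 (SD, n = 6 each). CNOT8 (4.97 ± 0.11) also lay apart from CNOT9 (4.77 ± 0.14), and CNOT7 (3.65 ± 0.12) from CNOT3 (3.41 ± 0.21), which came above CNOT2 (3.31 ± 0.18). The steps hold only for the window nearest a start and do not rank the genes. Control means over the windows of 1 gene spanned 1.99 at CNOT6L, 2.28 at CNOT8 and 5.08 at CNOT10. Another CNOT6L window, centred 673 bp upstream of a start, stood at 4.40. The CNOT1 upstream window stood at the level of the second step in controls and, at 3.49, at that of the third with dTAGV-1.

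At the edge of the distance rule, the last windows inside were those of CNOT4 at 919 bp, with a fold change of -0.24, and of CNOT6L at 977 bp, with 0.06. The first outside were those of CNOT10 at 1028 bp, from 1.41 to 1.77 log2 CPM, and of CNOT9 at 1081 bp, from 1.85 to 2.22 log2 CPM, with fold changes of 0.46 and 0.23. Of the 32 windows 28 held a summit of the authors' list of replicates 1 to 8, or 87.5%, and of all windows 77.8% did. The windows are not independent, since 13 of them overlap another, so no interval is given. The share over windows near a start was not counted.

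Of 42 other genes of deadenylation and decapping, 40 had a tested window, and none of these windows passed. The 6 windows of PARN, a poly(A)-specific ribonuclease, and the 1 window of LSM2, a subunit of the Lsm ring, held 0 counts in all libraries although the authors' −log10 q reached 324 and 97.7 there, so these 2 genes were not tested. The 127 windows of the list comprised those of deadenylases and partners of the complex (12 genes), of adaptors that recruit it (14 genes) and of decapping and 5′ decay (16 genes). Of 120 tested windows 0 passed in edgeR, 0 had an unadjusted p under 0.05, and 0 passed in any other setting, DESeq2 and limma included. Over all tested windows 0.213% were called lower in edgeR, and 0.492% of those near a start. At such shares 0 of 120 is not read as a result about the list. At an unadjusted edgeR p under 0.05, 2876 of all 185040 tested windows were lower and 2405 higher. The median fold change was -0.01, with 62 negative and 58 positive values. The lowest belonged to PABPC4, a cytoplasmic poly(A)-binding protein, with 1.82 ± 0.17 in controls and 1.57 ± 0.44 with dTAGV-1 (SD, n = 8 each) and a fold change of -0.27 (SE 0.20). The highest belonged to PAN3, a subunit of the PAN2-PAN3 deadenylase, with 2.85 ± 0.16 and 3.06 ± 0.15 (SD, n = 8 each) and a fold change of 0.23 (SE 0.13).

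CNOT11, the partner of CNOT10 on the scaffold, was in that list and was singled out after its values were seen. Its 4 windows changed by -0.15 to 0.04. The one nearest its start stood at 4.88 ± 0.43 in controls and 4.87 ± 0.35 with dTAGV-1 (SD, n = 8 each), and this window lies in an intron of TBC1D8.

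The promoter windows most like the CNOT1 upstream window were ranked by Pearson's r of log2 CPM over 16 libraries among 34320 candidates, which share their library scaling and the treatment. The 5 highest lay at starts of ZBTB8B (r = 0.98), USP5 (0.98), TARBP2 (0.97), FNTB (0.96) and BANP (0.96), with fold changes of -1.05, -0.93, -1.11, -1.05 and -0.88. The ranking ran over both groups against a window chosen for its loss, so these negative fold changes follow from the ranking. After the group means were removed, r was 0.88, 0.91, 0.88, 0.81 and 0.87. Over the 12 libraries without replicates 11 and 12 these values were 0.37, 0.84, 0.63, 0.21 and 0.64, so the likeness within groups fell at each of these windows when those 4 libraries were left out. The closest matches to the composite in these windows differed at 1, 1, 5, 3 and 1 letters.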

How the data were processed

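ATAC-seq counts of 16 libraries were analysed; the labels list 32, and those of replicates 1 to 8 entered only through a summit list. The submitters' processing notes list cutadapt 1.8.1, Bowtie2 2.4.4 and SAMtools 1.9 without their roles. Positions were read as hg38. The peak caller and the counting tool are not given in the sources used here, nor is a shift of reads for Tn5, which would be small beside a window of 401 bp. The deposited table holds whole-number counts per window, not normalized, and a −log10 q per window from the authors. For each summit the deposited list gives a −log10 score and a position. Both were used only to describe or filter windows. All count columns were used.

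Counts were tested with edgeR 4.0.16 in R 4.3.3 (filterByExpr by group, TMM, quasi-likelihood test, Benjamini-Hochberg over 185040 windows, threshold 0.05). Levels are log2 CPM with a prior count of 2. Standard errors were derived from the test statistic. No 2 libraries of a group agreed within sampling noise (chi-square per degree of freedom 1.63 to 5.01 over 56 pairs). The script was tested on simulated data. Transcript starts and annotations at window centres came from GENCODE release 44, and sequences from hg38. Letters were searched on both strands.

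The members and gene lists were chosen with earlier results of these data known. The text names both CNOT1 windows, the tested window nearest a start of each other member, any called window, the extremes of the deadenylation and decapping list, and the 5 windows most correlated with the CNOT1 upstream window. Other windows were named after their values were seen. Alternatives were DESeq2 1.42.0 and its size factors, limma 3.58.1 after cyclic loess, no count filter, a −log10 q of at least 10, a replicate block, other distances (500 and 2000 bp) and libraries left out.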

Additional observations from a re-analysis of the deposited data

Results flagged for a closer look

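Of 24 groups of 8 libraries examined, 9 had 1 library far from the others. The 24 groups share the same 16 libraries and are not independent, so a chance rate of about 1 in 20 does not apply to this count. In 8 of these 9 groups the far library was control replicate 12, which was the lowest. In the CNOT1 start window it stood at 4.93 log2 CPM against 5.85 to 6.16 in the other 7 controls, and in the CNOT1 upstream window at 3.74 against 4.91 to 5.13. It stood at 5.33 at the CNOT4 start (others 6.18 to 6.49) and at 4.74 at the CNOT10 start (others 5.77 to 6.31). At the starts of CNOT6, CNOT8 and CNOT9 it stood at 3.85 (others 4.86 to 5.24), 3.47 (others 4.80 to 5.12) and 3.89 (others 4.66 to 5.02). At the CNOT3 start it stood at 2.55 (others 3.18 to 3.68). This library had the fewest counts of the 16, and its part in each level was not tested beyond leaving it out.

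The remaining case was the CNOT1 ratio of the upstream to the start count, which was 57.4% in control replicate 11 and 43.2% to 48.9% in the other controls. That library lay farther from the dTAGV-1 libraries than any other control.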

How the results depend on the processing

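The number of called windows of the complex was 1, the CNOT1 upstream window whose call follows from its selection, and became 2, through the CNOT4 start window, with limma after cyclic loess, without replicates 11 and 12 of both groups, and with the replicate block. Leaving out each library in turn gave 1 to 2, and it was 2 without control replicate 12. With centres within 500 bp it was 0, since the CNOT1 upstream window is then not a member. Same-numbered libraries correlated by 0.03 to 0.34 after removal of group means, over 0.1 in 5 of 8 pairs. Of the 8 control libraries, 5 correlated best with the dTAGV-1 library of their own number. The labels do not say that the numbers mark pairs, and the main model did not pair them. These values do not settle whether they are pairs. With the replicate block the CNOT4 start window changed by -0.41 (SE 0.08, edgeR adjusted p = 0.000259). There dTAGV-1 was lower in 8 of 8 same-numbered pairs, a count not made over all windows. The called windows of the table rose with the block from 397 to 753. They were 781 without replicates 11 and 12, 632 without control replicate 12, and 321 to 406 without any other single library. No tested window of the deadenylation and decapping list passed under any setting. The fold change near 0 of the CNOT2 start window turned positive without replicates 11 and 12 (0.085). Leaving out single libraries gave ranges that crossed 0 for the start windows of CNOT2 (-0.111 to 0.0303), CNOT6 (-0.0690 to 0.0664), CNOT6L (-0.0389 to 0.180), CNOT8 (-0.0279 to 0.118), CNOT9 (-0.0994 to 0.0240) and CNOT10 (-0.0113 to 0.176). The cause of these turns was not tested. Windows with few counts limit what can be seen: standard errors reached 0.27 among the members.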
